A study of Mus musculus with 8 samples.

Results

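Contractile, SRF and YAP target genes were examined in NIH3T3 cells, mouse embryonic fibroblasts in permanent culture that respond to Hedgehog (Hh) ligand. The set holds 44 genes chosen by name, with earlier results of these data known. They were 18 of the contractile filament, 9 of cell adhesion and actin crosslinking, and 7 targets of the coactivator YAP. SRF with its coactivators, YAP, TAZ and the TEAD factors made up the rest. All 44 had a value in the 8 RNA-Seq samples, among 20197 genes that did, and 40 passed the expression filter, among 10284 genes tested. Control and Hh-CM cells carried the empty vector pcDNA3.1, and Esrrb and Esrrb+Hh-CM cells carried the same vector with Esrrb, the gene of Estrogen related receptor beta. Each condition had 2 samples. Both lines were stable pools selected with Zeocin for 3 weeks, from 2 transfections that were combined, and the sources do not tie a sample to a transfection, so p-values measure only the spread between these samples, and the effect of the Esrrb vector cannot be told apart from other differences between the 2 pools. Hh-CM cells and Esrrb+Hh-CM cells received, when confluent, 1 % of medium taken from HEK293 cells, which are human and of kidney origin, with a transgene for the Sonic Hedgehog N-terminus. Control and Esrrb cells received as much medium of HEK293 cells that lack the transgene, and all cells were kept for 48 h in phenol-red-free medium with 5 % newborn calf serum.

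Fibroblasts carry a contractile apparatus of actin and nonmuscle myosin, and when activated they add smooth muscle proteins such as smooth muscle alpha-actin. Many of these genes are controlled by serum response factor (SRF), which binds a DNA element called the CArG box. SRF is driven by the coactivators Mkl1 and Mkl2 (also named MRTF-A and MRTF-B), which monomeric actin holds back. YAP and its relative TAZ (the product of Wwtr1) are coactivators that the Hippo kinases keep out of the nucleus. They reach DNA through TEAD proteins, whose sites hold the letters CATTCC, and both systems respond to cell shape and tension.

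The sequence ahead of the start sites was read for the members, because a shared factor is part of the name of the set. Of the 44 members, 36 were in the RefSeq promoter table of build GRCm38.p6, with 47 promoters, and Actg2, Tagln, Myh11, Myocd, Ctgf, Thbs1, Tead1 and Tead4 had no entry. In the 250 bases before the start site, a CArG box (CC, then 6 bases that are each A or T, then GG, the same motif on either strand) was present in 5 of the 47 promoters, or 10.6%, against 1.47% of the 32851 promoters of the table. These belonged to Cnn2, Myl9, Vcl, Filip1l and Srf, and that of Srf held it at 82 and at 62 bases before the start. With 1 G or C allowed among the 6 bases, a choice made after the first search, 11 promoters (23.4%) of 10 members had a match, against 8.59% of all. CATTCC was present on either strand in 19 promoters (40.4%) of 17 members, against 12.6% of all. These matches are a description of letters, with no measure of binding. Printed here are 3 contractile members and 2 YAP targets whose levels changed, each as the 250 bases before the start site on the gene's own strand, with CArG matches and CATTCC (or GGAATG, its complement) in capitals.

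Acta2 (chr19:34255374-34255623, minus strand): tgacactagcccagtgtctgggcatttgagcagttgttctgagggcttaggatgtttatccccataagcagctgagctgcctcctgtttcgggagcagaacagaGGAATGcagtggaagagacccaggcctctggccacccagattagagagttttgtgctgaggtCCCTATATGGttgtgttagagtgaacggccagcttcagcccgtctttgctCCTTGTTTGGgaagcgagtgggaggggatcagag
Myl9 (chr2:156775214-156775463, plus strand): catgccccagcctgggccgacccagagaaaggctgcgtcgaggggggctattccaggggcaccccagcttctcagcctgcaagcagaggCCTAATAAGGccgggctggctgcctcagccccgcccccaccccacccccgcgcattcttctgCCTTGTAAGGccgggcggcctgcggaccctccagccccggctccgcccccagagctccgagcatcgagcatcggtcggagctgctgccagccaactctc
Cnn2 (chr10:79988350-79988599, plus strand): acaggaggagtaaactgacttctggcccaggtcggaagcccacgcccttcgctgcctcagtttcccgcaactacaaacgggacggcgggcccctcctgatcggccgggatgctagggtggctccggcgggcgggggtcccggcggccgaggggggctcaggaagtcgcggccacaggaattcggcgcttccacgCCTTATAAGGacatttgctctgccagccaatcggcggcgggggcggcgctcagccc
Ankrd1 (chr19:36119845-36120094, minus strand): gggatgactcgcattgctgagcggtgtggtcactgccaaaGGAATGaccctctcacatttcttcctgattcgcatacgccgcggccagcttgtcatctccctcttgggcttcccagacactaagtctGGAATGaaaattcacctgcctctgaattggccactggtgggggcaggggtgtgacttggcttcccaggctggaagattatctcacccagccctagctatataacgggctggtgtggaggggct
Cyr61 (chr3:145649986-145650235, minus strand): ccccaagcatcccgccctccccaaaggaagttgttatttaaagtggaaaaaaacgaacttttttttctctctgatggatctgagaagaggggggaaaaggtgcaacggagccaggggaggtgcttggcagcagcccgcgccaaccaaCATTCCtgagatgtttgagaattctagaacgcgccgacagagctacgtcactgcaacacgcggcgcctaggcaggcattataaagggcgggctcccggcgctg

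Acta2 had no exact CArG box in this window and 2 matches with 1 G or C, at 84 and 34 bases before the start, together with a CATTCC at 146. Myl9 had an exact box at 161 and a looser match at 99, and Cnn2 an exact box at 56. The CATTCC matches of Ankrd1 lay at 210 and 123 bases before the start, and that of Cyr61 at 103. No match was found among these letters of Cyr61 for the CArG box, also in its looser form.

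The values are FPKM, fragments scaled to transcript length and to the mapped fragments of the library. Loci were assembled in each sample alone, and 16 of the 44 members had loci that differed between samples, which limits the comparison of their levels. A median-ratio rescaling, not used in the main fit, gave log2 factors of -0.048 and -0.044 for Control and 0.050 and 0.025 for Esrrb+Hh-CM samples. The smallest changes between these conditions are therefore uncertain. No read counts are given, and depth, estimated from the steps of low values, was 0.743 to 1.54 times that of Control replicate 1. Esrrb replicate 1 stood apart from the rest, with 480 loci marked as low in data against 62 to 78 in the others and a median FPKM of 0.812 against 1.23 to 1.61. Gli1 and Ptch1, targets that mark Hh signaling, rose with Hh-CM by 7.77 and 3.73 on the log2 scale in the empty-vector line and by 7.69 and 3.93 in the Esrrb line (limma adjusted p at most 3.38e-05). The Esrrb locus itself was at 0 FPKM in 6 samples and at 0.0281 or less in the Hh-CM pair, so the Esrrb transcript was not seen in the libraries labelled Esrrb. A listed 0 can be a failed estimate in these files, since Tmsb4x, an abundant gene for an actin-binding peptide, was listed at 0 in Esrrb replicate 1 and had 737 FPKM in Esrrb replicate 2. The study reported more Esrrb protein in the Esrrb-transfected cells by western blot, which is not among the values used here. Whether the insert of the vector would be counted at this mouse locus is not given in the sources used here. Esrrb and Esrrb+Hh-CM therefore stand throughout for the labels of these libraries, and a direction with the Esrrb vector for one between libraries so labelled. All 10 fibroblast markers with a value reached an FPKM of 1, and none of the 8 skeletal muscle or 5 epithelial markers did.

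The contractile and YAP genes were strongly expressed. The median of the members' mean FPKM was 44.6, against 12.4 over all genes tested. Cnn3 (calponin 3, 396 FPKM in Control cells), Acta2 (374 FPKM), Tpm4 (309 FPKM) and Tpm1 (294 FPKM) had the highest Control means, and Tead4 (2.47 FPKM), Mkl2 (2.83 FPKM) and Actg2 (1.60 FPKM) the lowest among the members tested. The genes that define differentiated smooth muscle were near 0. Cnn1 (calponin 1) ranged from 0.0700 to 0.739 FPKM over the 8 samples and Des (desmin) from 0.0432 to 0.320 FPKM. Myh11 (smooth muscle myosin heavy chain) reached at most 0.0344 FPKM, and Myocd (myocardin, the SRF coactivator of muscle) at most 0.0135 FPKM. These 4 genes were below the filter (an FPKM of 1 in at least 2 samples) and were not tested. Actg2 passed it through the Control cells, where it was highest, and is counted below among the members called with both treatments, a call that its own selection bears on.

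With Hh-CM in the empty-vector line, contractile and YAP target genes fell more often than they rose. Of the 40 members tested, 17 changed (limma adjusted p below 0.05), 11 of them lower and 6 higher, against 18.0% of all genes tested, 7.53% lower and 10.5% higher. The median log2 fold change was -0.13 for the members and 0.04 for all genes. A log2 fold change as large as 1 in size was reached by 5 of them (12.5% of the members tested, against 2.76% of all genes), and all were lower: Thbs1, Lmod1, Tagln, Ankrd1 and Cyr61. The paper lists the same 5 genes as lower with Hh-CM in these samples. Because the members were chosen with earlier results of these data known, their shares beside those of all genes, here and below, describe the set and do not test it.

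In the libraries labelled Esrrb, against Control, 8 members changed, which is 20% of those tested against 16.4% of all genes. That total was near the background, also among genes with a mean FPKM of 10 or more, where 7 of 33 members changed against 20.3% of all. By direction, 5 were lower (12.5% of the members tested, against 6.16% of all genes) and 3 higher (7.5%, against 10.2%). The members' median was 0.00, with 0.05 for all genes. No member that was called reached a log2 fold change of 1 in size, while 1.47% of all genes were called and reached it. The paper, with Cuffdiff, names Tagln and Lmod1 among the genes that both Hh ligand and Esrrb expression altered. Here Tagln was called with the Esrrb label at -0.98, short of that limit. Lmod1 had -1.06 and was not called (limma adjusted p = 0.077).

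Between Control and Esrrb+Hh-CM cells 27 of 40 members changed, 18 lower and 9 higher, against 35.0% of all genes, 12.0% lower and 23.0% higher. Past a log2 fold change of 1 were 7 members, against 6.21% of all genes. These were Lmod1, Tagln, Myl9, Ankrd1, Thbs1 and Acta2, and Actg2, which the filter let in through Control cells. From Hh-CM to Esrrb+Hh-CM cells 12 members changed, 7 lower and 5 higher, against 18.9% of all genes, 6.52% lower and 12.4% higher, and 1 member was past a log2 fold change of 1, against 1.97% of all genes. From Esrrb to Esrrb+Hh-CM cells 26 members changed, 18 lower and 8 higher, against 23.4% of all genes, 9.51% lower and 13.9% higher, and 4 members were past a log2 fold change of 1, against 4.81% of all genes. Comparisons that share a condition share its samples, so these counts are not independent of each other.

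**Figure D1:**
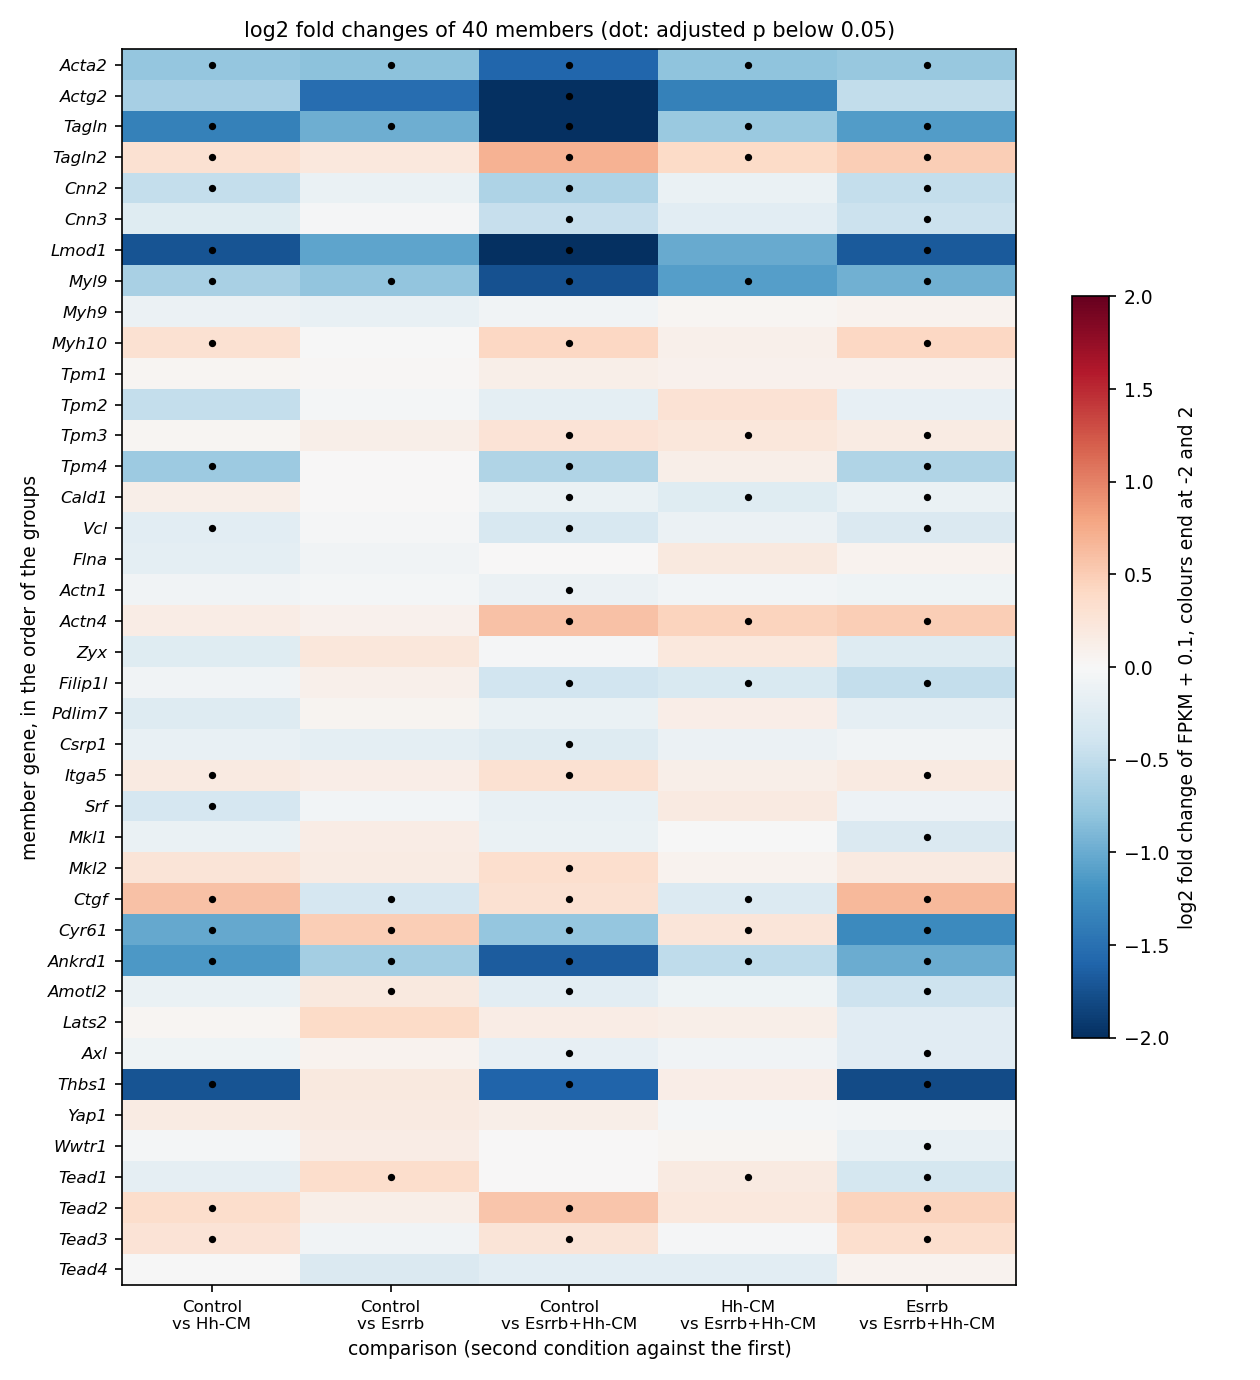
Log2 fold changes of the 40 tested members (rows) in 5 comparisons (columns), second condition against the first, with colours that end at -2 and 2 and a dot for an adjusted p below 0.05. Acta2, Tagln, Myl9 and Ankrd1 were blue with a dot in every column. Tagln2, Myh10, Itga5, Ctgf, Tead2 and Tead3 were red with a dot in the first, the third and the last.

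Acta2, which encodes smooth muscle alpha-actin (mm9 chr19:34315580-34329826, minus strand), fell with either treatment and fell further with both. Its FPKM was 377 and 372 in the Control samples, 212 and 225 in Hh-CM, 210.0 and 212 in Esrrb and 124 and 125 in Esrrb+Hh-CM samples. The Control samples stood above all others, the Esrrb+Hh-CM samples below all others, and the samples of the other two conditions overlapped. The log2 fold change was -0.78 ± 0.04 (standard error; limma adjusted p = 0.00016) with Hh-CM and -0.82 ± 0.04 (adjusted p = 0.000259) with the Esrrb vector. In Esrrb+Hh-CM cells the level was 33.2% of the Control level (log2 fold change -1.59, standard error 0.04, limma adjusted p = 1.11e-05). The response to Hh-CM was -0.76 (adjusted p = 0.000108) in the Esrrb line, and its difference from that in the empty-vector line was 0.01, with a 95% interval from -0.12 to 0.14.

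Tagln encodes transgelin (SM22), an actin-binding protein of smooth muscle (mm9 chr9:45737711-45744141, minus strand), and Pcsk7 overlaps it on the other strand. It had 83.2 and 85.2 FPKM in Control, 32.8 and 33.2 in Hh-CM, 42.6 and 42.8 in Esrrb and 21.6 and 17.9 in Esrrb+Hh-CM samples. No 2 conditions overlapped. The log2 fold change of Tagln was -1.35 with Hh-CM, -0.98 with the Esrrb vector and -2.09 with both (limma adjusted p = 0.000422, 0.00209 and 4.46e-05). From Hh-CM to Esrrb+Hh-CM cells it fell by 0.74 (limma adjusted p = 0.00475). Its close relative Tagln2 went the other way, from 214 and 210 FPKM in Control to 259 and 267 in Hh-CM, 238 and 252 in Esrrb and 360 and 327 in Esrrb+Hh-CM samples. It rose by 0.69 with both (limma adjusted p = 0.000442) and by 0.39 from Hh-CM to Esrrb+Hh-CM cells (limma adjusted p = 0.00924), a call lost without Hh-CM replicate 1 (0.0577) and with only the compared groups (0.0516). With the Esrrb vector in vehicle its log2 fold change of 0.21 did not pass the test (limma adjusted p = 0.0616).

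Myl9 encodes a regulatory light chain of smooth muscle and nonmuscle myosin (mm9 chr2:156601156-156607394, plus strand). It had 35.3 and 35.1 FPKM in Control, 21.9 and 22.8 in Hh-CM, 19.3 and 21.2 in Esrrb and 10.0 and 10.8 in Esrrb+Hh-CM samples. Control samples were highest and Esrrb+Hh-CM samples lowest, and no 2 conditions overlapped. Myl9 had a log2 fold change of -0.65 with Hh-CM, -0.79 with the Esrrb vector and -1.75 with both (limma adjusted p = 0.00191, 0.00167 and 3.22e-05). From Hh-CM to Esrrb+Hh-CM cells it fell by 1.10 on the log2 scale (limma adjusted p = 0.00056), and it was the only member past a log2 fold change of 1 in that comparison. The Hh-CM response of Myl9 was larger in size in the Esrrb line by 0.30 (95% interval of the difference -0.53 to -0.08), which did not pass the test over all genes (limma adjusted p = 0.17).

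Lmod1, leiomodin 1, which starts actin filaments in smooth muscle, was low, and among the members it had the largest fold change from Control to Esrrb+Hh-CM cells, 6.65-fold lower. Its FPKM was 4.96 and 5.48 in Control, 1.61 and 1.41 in Hh-CM, 3.33 and 1.80 in Esrrb and 0.864 and 0.562 in Esrrb+Hh-CM samples. The Esrrb samples were far apart, and all Control samples were above every other sample. The fall with Hh-CM had a log2 fold change of -1.73 and a standard error of 0.32 (limma adjusted p = 0.0171), and that with both one of -2.73 (limma adjusted p = 0.00171). The call with Hh-CM was lost without any 1 of the 4 compared samples (limma adjusted p = 0.0667 to 0.0838) and with no FPKM filter (0.0665). That of -1.06 with the Esrrb vector did not pass (limma adjusted p = 0.077). Actg2, smooth muscle gamma-actin, had 1.52 and 1.67 FPKM in Control, 0.859 and 1.09 in Hh-CM, 0.462 and 0.520 in Esrrb and 0.178 and 0.529 in Esrrb+Hh-CM samples. Its log2 fold change with both treatments was -2.02 (standard error 0.41), but it entered the test only through the Control cells in which it was highest, so this difference is given as a description. Actins are near-identical in sequence, so how reads were shared between Acta2 and the much lower Actg2 makes the latter uncertain.

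**Figure D2:**
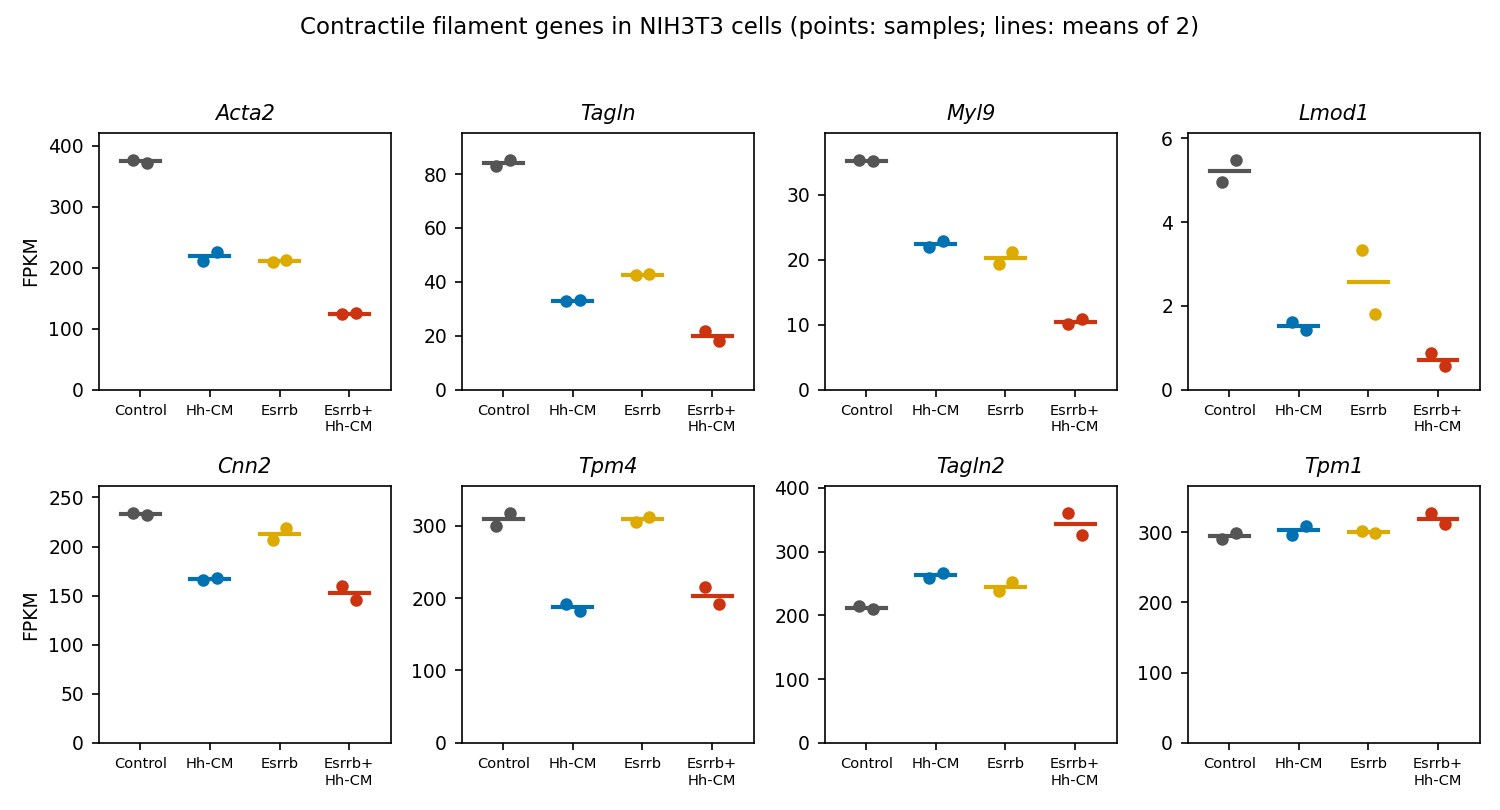
FPKM (vertical axis, from 0) of 8 contractile filament genes in the 4 conditions, with a point for each of 2 samples and a line at their mean. Acta2, Tagln, Myl9 and Lmod1 were lowest in Esrrb+Hh-CM cells, Cnn2 and Tpm4 were lower in the conditions with Hh-CM, Tagln2 was highest in Esrrb+Hh-CM cells, and Tpm1 stayed between 290 and 327 FPKM.

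Calponins, tropomyosins and caldesmon, which lie along the actin filament, split among their own isoforms. Tpm4 had 301 and 317 FPKM in Control and 305 and 313 in Esrrb samples, but 192 and 183 in Hh-CM and 215 and 192 in Esrrb+Hh-CM samples. The samples with Hh-CM were below all samples without it, and the Esrrb samples lay within the range of the Control samples. Hh-CM lowered Tpm4 by a log2 fold change of -0.72 in the empty-vector line (limma adjusted p = 0.00137) and of -0.60 in the Esrrb line (limma adjusted p = 0.00156). With the Esrrb vector in vehicle its log2 fold change was 0.00, with a 95% interval from -0.16 to 0.16. Cnn2 (calponin 2) had a Control mean of 233 FPKM, of which 91.3% was left in Esrrb cells, 71.7% in Hh-CM cells and 65.3% in Esrrb+Hh-CM cells. Its fall passed the test with Hh-CM in each line (limma adjusted p = 0.00296 and 0.00192).

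Cnn3 was at 72.7% of its Control level in Esrrb+Hh-CM cells (287.9 FPKM on average), and its log2 fold change of -0.46 passed the test (limma adjusted p = 0.00465). In Control replicate 1 its assembled locus overlapped the annotated gene by 0.636 of their joint length, against longer overlaps in the other samples. Cald1 (caldesmon) fell by 0.13 on the log2 scale between Control and Esrrb+Hh-CM cells and by 0.25 from Hh-CM to Esrrb+Hh-CM cells (limma adjusted p = 0.0319 and 0.00758). Tpm3 rose by 0.27 between Control and Esrrb+Hh-CM cells (limma adjusted p = 0.00307). Tpm1 ranged only from 290 to 327 FPKM, and its log2 fold changes lay between 0.03 and 0.12, none past the test.

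Tpm2 could not be read in the same way, since its level followed the locus that was assembled in a sample. In Control replicate 1, Hh-CM replicate 1 and Esrrb+Hh-CM replicate 1 the locus was 9.83 kb long and the FPKM was 48.0, 34.1 and 38.0. In Control replicate 2, Esrrb replicate 1 and Hh-CM replicate 2 it was 14.6 kb long with 71.9, 64.3 and 52.0 FPKM. Esrrb replicate 2 and Esrrb+Hh-CM replicate 2 had loci of 13.4 and 13.3 kb with 51.1 and 69.1 FPKM. All samples with the short locus were below all samples with a longer one, whatever their condition, and the part of the locus in the level was not tested. Tpm2 also had the largest gap between replicates of any member in Control and in Hh-CM cells, 0.58 and 0.61 on the log2 scale. Of all 44 members, 28 had the same locus in every sample and 16 did not.

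**Figure D3:**
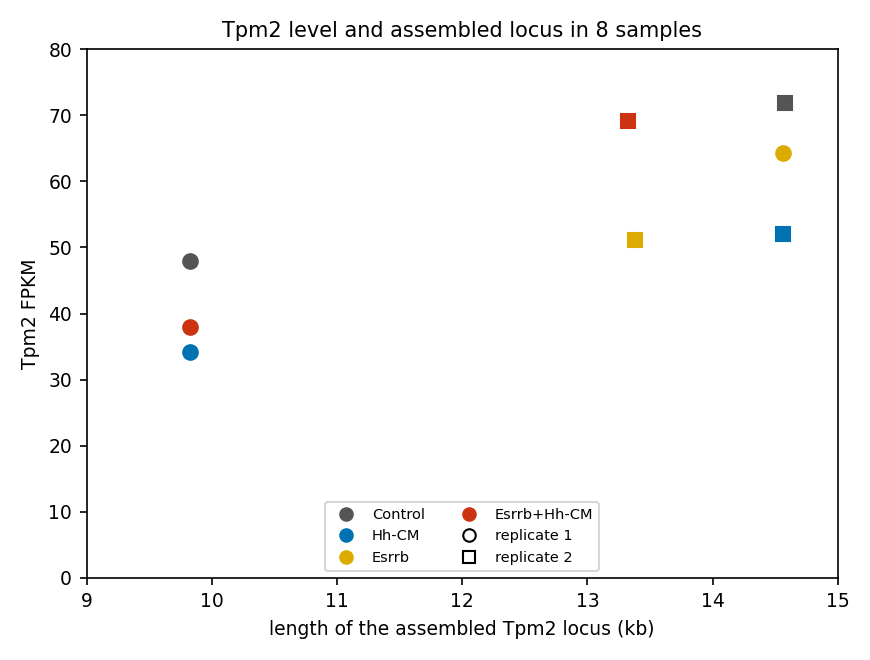
Tpm2 FPKM (vertical axis, from 0) against the length of the assembled Tpm2 locus in kb in each of the 8 samples, with colour for the condition and shape for the replicate. The 3 samples with a locus of 9.83 kb lie between 34.1 and 48.0 FPKM and the other 5 between 51.1 and 71.9 FPKM.

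The nonmuscle myosin heavy chains did not follow the light chain. Myh9 (myosin IIA) had 67.1 and 67.7 FPKM in Control and 62.1 and 65.8 FPKM in Esrrb+Hh-CM samples, and passed the test in no comparison. Myh10 (myosin IIB) rose from 21.8 and 22.0 FPKM in Control to 26.1 and 28.2 in Hh-CM and 28.8 and 29.5 in Esrrb+Hh-CM samples, with 23.5 and 20.3 in Esrrb samples. All samples with Hh-CM were above all samples without it. The log2 fold change was 0.31 with Hh-CM in the empty-vector line (limma adjusted p = 0.0435) and 0.42 in the Esrrb line (limma adjusted p = 0.0134).

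Of the 15 contractile filament genes tested, 6 fell and 2 rose with Hh-CM, 3 fell and none rose with the Esrrb vector, and 9 fell (Actg2 among them) and 3 rose with both. Of all genes, 18.0%, 16.4% and 35.0% were called in these comparisons, and 7.53%, 6.16% and 12.0% were called lower. The total of 3 of 15 with the Esrrb vector was near the background, though all 3 were lower. Median log2 fold changes of the 15 genes were -0.48, -0.03 and -0.46, beside 0.04, 0.05 and 0.08 for all genes. In the Esrrb line Hh-CM lowered 8 and raised 3 of the 15. Of all genes 23.4% were called there, 9.51% lower and 13.9% higher.

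Genes of adhesion sites and actin crosslinking moved in both directions. Of the 9 tested, Vcl (vinculin, which ties integrins to actin) fell and Itga5 (the fibronectin receptor subunit) rose with Hh-CM, and with both treatments 4 fell and 2 rose, against 18.0% and 35.0% of all genes called in these comparisons. Vcl had 54.7 and 56.4 FPKM in Control, 47.1 and 48.7 in Hh-CM, 54.0 and 55.0 in Esrrb and 43.7 and 45.1 in Esrrb+Hh-CM samples. Samples with Hh-CM were below those without it, and the log2 fold change was -0.21 in the empty-vector line and -0.30 in the Esrrb line (limma adjusted p = 0.016 and 0.00347). Itga5 went from a mean of 28.8 FPKM in Control to 35.6 FPKM in Esrrb+Hh-CM cells (log2 fold change 0.30, limma adjusted p = 0.00213).

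The alpha-actinins, which bundle actin filaments, moved in opposite directions. Actn4 rose from 70.4 and 68.5 FPKM in Control to 97.0 and 111 in Esrrb+Hh-CM samples, with 75.0 and 78.4 in Hh-CM and 74.5 and 73.5 in Esrrb samples. The Esrrb+Hh-CM samples stood above all others, and the Hh-CM and Esrrb samples lay close together. From Control to Esrrb+Hh-CM cells its log2 fold change was 0.58 (limma adjusted p = 0.00178), 0.44 from Hh-CM to Esrrb+Hh-CM cells (limma adjusted p = 0.011) and 0.49 from Esrrb to Esrrb+Hh-CM cells (limma adjusted p = 0.00463). The call against Hh-CM cells was lost without Hh-CM replicate 1 (limma adjusted p = 0.066) and with only the compared groups (0.0621). Neither treatment alone passed the test, and the difference of the Hh-CM responses, 0.34 with a 95% interval from 0.11 to 0.58, did not pass over all genes (limma adjusted p = 0.15). Actn1 fell by 0.12 between Control and Esrrb+Hh-CM cells (limma adjusted p = 0.0282), from a mean of 75.9 to 69.8 FPKM. Reads of Actn4 and of Capn12, which overlaps it on the other strand, cannot be told apart if strand was not used.

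Filip1l, a filamin-interacting protein, had means of 20.2 FPKM in Control, 21.7 in Esrrb, 19.2 in Hh-CM and 15.5 in Esrrb+Hh-CM cells. It fell by 0.31 on the log2 scale from Hh-CM to Esrrb+Hh-CM cells (limma adjusted p = 0.0336) and by 0.48 from Esrrb to Esrrb+Hh-CM cells (limma adjusted p = 0.00595). The first of these calls was lost without any 1 of the 4 compared samples (limma adjusted p = 0.0579 to 0.127), with no FPKM filter (0.0821) and with only the compared groups in the fit (0.067). Csrp1, a LIM protein of the cytoskeleton, fell by 0.27 between Control and Esrrb+Hh-CM cells (limma adjusted p = 0.0276). Zyx (zyxin) had means of 136 and 160 FPKM in Control and Esrrb cells and of 115 and 134 FPKM in the cells with Hh-CM, without and with the Esrrb vector, and Flna (filamin A) and Pdlim7 ranged from 77.8 to 95.9 FPKM and from 13.8 to 18.9 FPKM over all samples. None of these 3 passed the test in any comparison.

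SRF itself fell slightly with Hh-CM in the empty-vector line. Srf had 10.7 and 11.3 FPKM in Control, 8.50 and 8.85 in Hh-CM, 10.5 in both Esrrb samples and 10.2 and 9.47 in Esrrb+Hh-CM samples. The Hh-CM samples were the lowest, and the other 6 lay between 9.47 and 11.3 FPKM. The log2 fold change of -0.33 passed the test between Control and Hh-CM cells (limma adjusted p = 0.0171), and that of -0.15 between Control and Esrrb+Hh-CM cells did not (95% interval -0.30 to 0.00). In the Esrrb line the Srf response to Hh-CM, -0.09, did not pass either (limma adjusted p = 0.333). Mkl1 fell by 0.29 with Hh-CM in the Esrrb line (limma adjusted p = 0.0088), from 12.8 and 13.3 FPKM in Esrrb to 10.5 and 10.8 in Esrrb+Hh-CM samples. Mkl2 had a mean of 2.83 FPKM in Control and 3.59 FPKM in Esrrb+Hh-CM cells, and rose by 0.34 between them (limma adjusted p = 0.0391).

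YAP target genes differed from each other in direction. Thbs1, thrombospondin 1, a secreted matrix protein (mm9 chr2:117937612-117952869, plus strand), had 115.5 and 120.4 FPKM in Control and 136 and 133 in Esrrb samples, and 35.2 and 35.6 in Hh-CM and 36.8 and 41.3 in Esrrb+Hh-CM samples. Every sample with Hh-CM was far below every sample without it. Thbs1 fell 3.32-fold with Hh-CM in the empty-vector line (log2 fold change -1.73, limma adjusted p = 5.65e-05) and 3.44-fold in the Esrrb line (log2 fold change -1.78, limma adjusted p = 3.93e-05). The difference of the log2 responses was -0.05, with a 95% interval from -0.26 to 0.16. The Esrrb vector in vehicle gave a log2 fold change of 0.19 that did not pass the test (limma adjusted p = 0.0871).

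Cyr61 and Ctgf encode secreted proteins of one family and are widely used readouts of YAP, yet their levels moved in opposite directions. Cyr61 (mm9 chr3:145309935-145312949, minus strand) had 21.0 and 22.7 FPKM in Control, 10.8 and 10.5 in Hh-CM, 30.7 and 30.9 in Esrrb and 13.1 and 12.4 in Esrrb+Hh-CM samples. It was highest in Esrrb samples and lowest in Hh-CM samples, with no overlap between conditions. Cyr61 had a log2 fold change of -1.03 with Hh-CM (limma adjusted p = 0.00026), 0.49 with the Esrrb vector (limma adjusted p = 0.00468) and -1.27 with Hh-CM in the Esrrb line (limma adjusted p = 7.65e-05). Between Control and Esrrb+Hh-CM cells it fell by 0.78 (limma adjusted p = 0.000291). Ctgf (mm9 chr10:24315248-24318489, plus strand, with the noncoding Gm15270 on the other strand) had 10.4 and 11.2 FPKM in Control, 15.9 and 16.8 in Hh-CM, 8.34 and 8.76 in Esrrb and 13.5 and 13.4 in Esrrb+Hh-CM samples. It was highest in Hh-CM samples and lowest in Esrrb samples, the reverse of Cyr61 at both ends. Ctgf rose by 0.59 with Hh-CM in the empty-vector line (limma adjusted p = 0.00213) and by 0.65 in the Esrrb line (limma adjusted p = 0.000949), and fell by 0.34 with the Esrrb vector in vehicle (limma adjusted p = 0.0185) and by 0.28 from Hh-CM to Esrrb+Hh-CM cells (limma adjusted p = 0.0278). Both falls lost their call with only the compared groups in the fit (limma adjusted p = 0.0689 and 0.0699), the first also without Control replicate 2, Esrrb replicate 1 or Esrrb replicate 2 (0.0547 to 0.0855) and the second without any 1 of the 4 compared samples (0.0791 to 0.121).

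Ankrd1, an ankyrin repeat protein induced by stretch in muscle, moved with the contractile genes. It had 13.2 and 12.4 FPKM in Control, 5.94 and 5.48 in Hh-CM, 8.41 and 7.57 in Esrrb and 4.26 and 3.71 in Esrrb+Hh-CM samples. Control samples were highest and Esrrb+Hh-CM samples lowest, without overlap. The log2 fold change was -1.15 with Hh-CM, -0.68 with the Esrrb vector and -1.66 with both (limma adjusted p = 0.00119, 0.0098 and 0.000143). In the Esrrb line Hh-CM lowered it by 0.99 (limma adjusted p = 0.00125), and the Esrrb vector under Hh-CM by 0.51 (limma adjusted p = 0.0203). The last call was lost with no FPKM filter (limma adjusted p = 0.0544), with only the compared groups (0.0749) and without Hh-CM replicate 1, Hh-CM replicate 2 or Esrrb+Hh-CM replicate 2 (0.106, 0.0583 and 0.0665). That with the Esrrb vector in vehicle was lost without Control replicate 1 or Esrrb replicate 2 (limma adjusted p = 0.0604 and 0.0517).

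**Figure D4:**
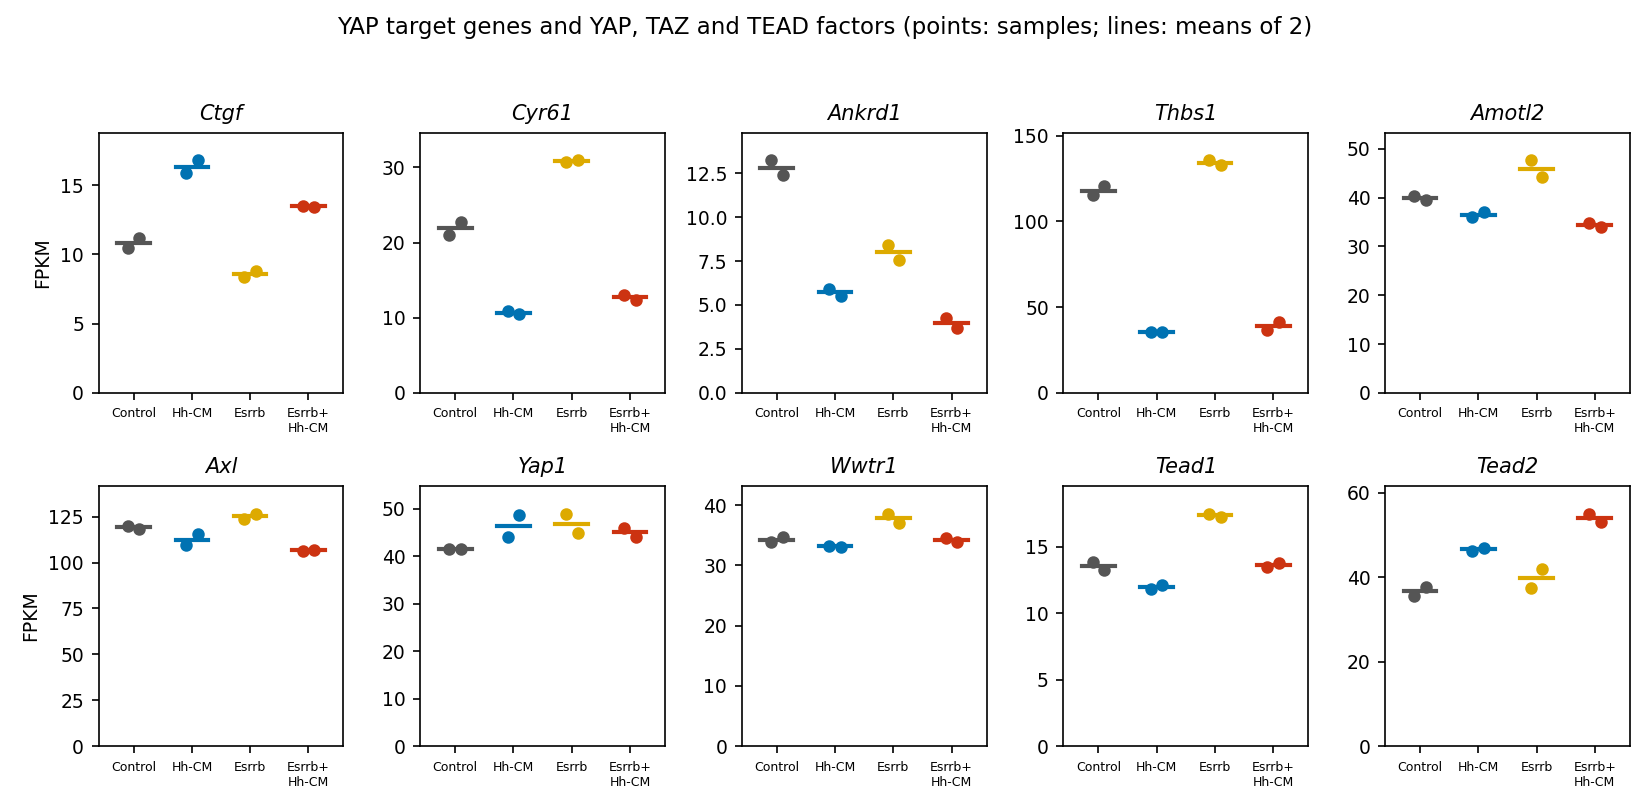
FPKM (vertical axis, from 0) of 6 YAP target genes and of Yap1, Wwtr1 (TAZ), Tead1 and Tead2 in the 4 conditions, with a point for each of 2 samples and a line at their mean. Thbs1, Cyr61 and Ankrd1 were lower with Hh-CM, Ctgf was higher with it, and Yap1 and Wwtr1 stayed between 41.5 and 49.0 FPKM and between 33.1 and 38.6 FPKM.

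Amotl2, which binds YAP in the cytoplasm, rose by 0.20 with the Esrrb vector (limma adjusted p = 0.0399, the smallest change among those named in full for that comparison) and fell by 0.42 with Hh-CM in the Esrrb line (limma adjusted p = 0.00208). The first of these lost its call in several other settings, among them a rescaling of the samples. Axl, a receptor tyrosine kinase, had means of 119 FPKM in Control and 107 FPKM in Esrrb+Hh-CM cells and fell by 0.16 between them (limma adjusted p = 0.0191). Lats2, a Hippo kinase that is also a YAP target, had 8.05 and 7.67 FPKM in Control and 12.0 and 8.72 in Esrrb samples and did not pass the test in any comparison. Its span overlaps that of Xpo4 on the same strand.

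Yap1 and Wwtr1 changed little at the transcript level. Yap1 had means of 41.5 and 46.9 FPKM in Control and Esrrb cells and of 46.4 and 45.0 FPKM with Hh-CM in the same lines, and passed the test in no comparison. The 95% interval of its log2 fold change with Hh-CM was 0.00 to 0.32 in the empty-vector line and -0.22 to 0.10 in the Esrrb line. Wwtr1 fell by 0.14 with Hh-CM in the Esrrb line (limma adjusted p = 0.0433), from 38.6 and 37.1 FPKM in Esrrb to 34.6 and 33.9 in Esrrb+Hh-CM samples.

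The TEAD factors split. Tead2 rose with Hh-CM by 0.35 in the empty-vector line and by 0.44 in the Esrrb line (limma adjusted p = 0.0168 and 0.00502), with 35.6 and 37.7 FPKM in Control, 46.3 and 47.1 in Hh-CM, 37.6 and 42.0 in Esrrb and 55.1 and 53.2 in Esrrb+Hh-CM samples. All samples with Hh-CM were above all samples without it. Tead3 rose by 0.28 and 0.34 in the same 2 comparisons (limma adjusted p = 0.00863 and 0.00294). Tead1 had 13.8 and 13.3 FPKM in Control, 11.8 and 12.1 in Hh-CM, 17.5 and 17.3 in Esrrb and 13.5 and 13.8 in Esrrb+Hh-CM samples, so that the Esrrb samples were highest. It rose by 0.36 with the Esrrb vector in vehicle (limma adjusted p = 0.00669) and fell by 0.35 with Hh-CM in the Esrrb line (limma adjusted p = 0.00366). Tead4 stayed between 1.96 and 2.65 FPKM and did not pass the test in any comparison.

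The responses to Hh-CM in the 2 lines rest on separate samples and could be set side by side. Of the 40 members, 34 (85%) had the same sign in both lines, against 66.9% of all genes tested, and Pearson's r across the members was 0.94 (Spearman's rank correlation 0.89), against 0.35 (0.50) across all genes. Genes are not independent replicates, and the points share the libraries of each line. The members also had higher levels than all genes tested (median mean FPKM 44.6 against 12.4) and were chosen with earlier results known. No correlation was computed for genes of like level, so the gap to all genes is a description. In both lines 16 members passed the test in the same direction, which is 94.1% of the members called in the empty-vector line and 61.5% of those called in the Esrrb line, against 69.0% and 53.2% for all genes. Srf was the exception among the former.

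**Figure D5:**
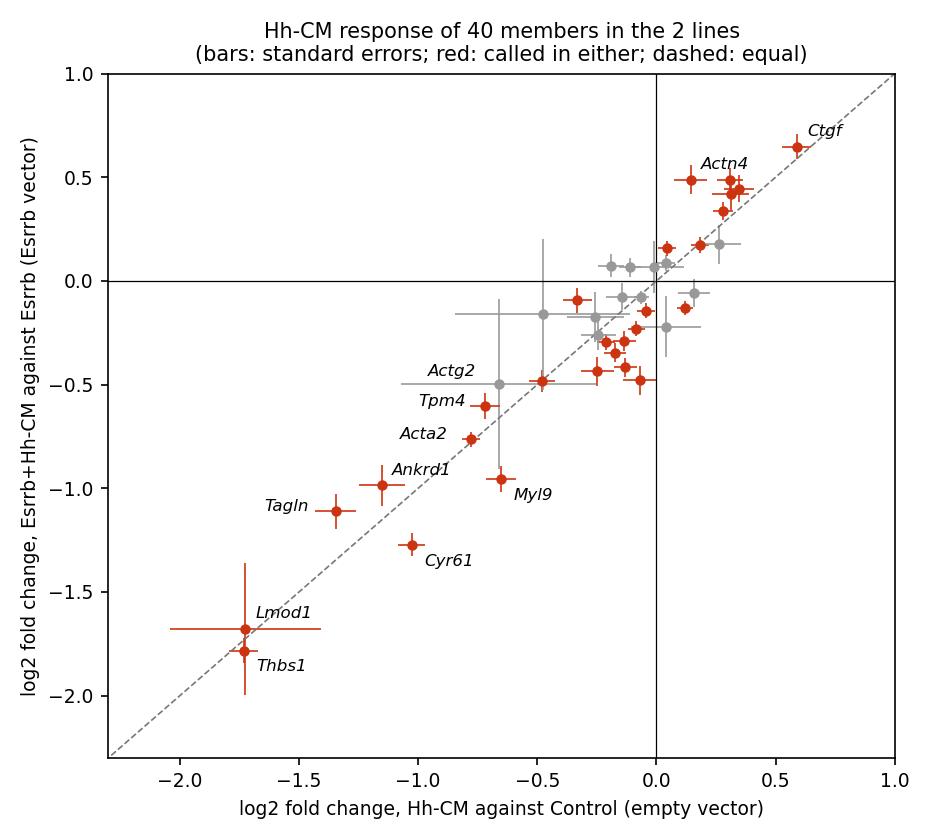
Log2 fold change with Hh-CM of the 40 tested members in the Esrrb-vector line (vertical axis) against that in the empty-vector line (horizontal axis), with standard errors as bars, members called in either line in red and a dashed line of equal response. The points lie along the dashed line from Thbs1 and Lmod1, near -1.7 in each line, to Ctgf at 0.59 and 0.65.

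The test of the difference between these responses (the interaction) was passed by none of the 40 members with limma, against 1.35% of all genes. At an unadjusted p below 0.05 there were 11 members, or 27.5%, against 18.0% of all genes. The difference nearest to the limit was that of Cald1, -0.25 (95% interval -0.36 to -0.13, limma adjusted p = 0.0733), followed by Amotl2 at -0.29 and Filip1l at -0.41 (limma adjusted p = 0.107 and 0.116). For Tagln it was 0.24 (95% interval -0.06 to 0.53), for Cyr61 -0.24 (-0.44 to -0.05) and for Lmod1 0.05 with a wide interval from -1.06 to 1.16. No test on counts was run, because the files give no counts.

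Apart from Myl12b above, the other genes of the pathway were described from 5 lists beside the members, and by 3 more genes that act on actin or myosin. Of 14 other SRF targets tested, 4 fell and 1 rose with Hh-CM, against 7.53% lower and 10.5% higher of all genes, and 7 fell and 2 rose with both, against 12.0% and 23.0%. Palld (palladin, an actin crosslinker) was 42.4 and 42.0 FPKM in Control and 23.5 and 25.4 in Esrrb+Hh-CM samples (log2 fold change -0.79, limma adjusted p = 0.000657), and Crip2, a LIM protein, fell by 1.03 from a low level (limma adjusted p = 0.0392). Jag1, a Notch ligand, rose by 1.60 with Hh-CM (limma adjusted p = 0.000974) and Junb, an AP-1 subunit, by 0.50 with both (limma adjusted p = 0.00702).

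Mylk, the kinase that phosphorylates the myosin light chain, went from 13.3 and 13.1 FPKM in Control to 4.95 and 4.49 in Hh-CM samples, and from 13.5 and 13.3 in Esrrb to 4.26 and 4.39 in Esrrb+Hh-CM samples. It fell by 1.47 and 1.61 on the log2 scale (limma adjusted p = 0.00013 and 5.89e-05), and its log2 fold change with the Esrrb vector in vehicle was 0.03. Cfl2, an actin-severing cofilin, fell by 0.43 with both (limma adjusted p = 0.000356). Limk1, a kinase of cofilin, rose by 0.42 with both (limma adjusted p = 0.0133).

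Of 19 other YAP targets tested, 5 rose and 4 fell with Hh-CM, against 10.5% higher and 7.53% lower of all genes, and 6 rose and 6 fell with both, against 23.0% and 12.0%. Birc5 (survivin) and the kinase Nuak2 rose by 1.05 and 1.77 with Hh-CM (limma adjusted p = 0.000222 and 0.000135), and Wisp2, of the family of Ctgf and Cyr61, and F3 (tissue factor) fell by 0.85 and 0.69 (limma adjusted p = 0.000135 and 0.000679). Of 11 Hippo kinases and adaptors none rose and 2 fell with Hh-CM, a total near the 18.0% of all genes. These were Vgll3, a TEAD cofactor, and Amot, a relative of Amotl2, which fell by 0.61 and 0.45 (limma adjusted p = 0.00897 and 0.0052). With both treatments Wwc1 fell by 1.16 and the kinase Stk3 rose by 0.31 (limma adjusted p = 0.00758 and 0.0147).

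TGF-beta is a known inducer of contractile genes in fibroblasts. Of 15 ligands, receptors and Smads tested, 2 rose and 2 fell with Hh-CM, against 18.0% of all genes called, and 3 rose and 5 fell with both, against 35.0%. With both treatments Smad7, an inhibitor and target of the pathway, fell by 1.76, the ligand Tgfb3 by 1.22 and the latency protein Ltbp1 by 1.13 on the log2 scale (limma adjusted p = 0.0035, 0.000919 and 0.000397). Ltbp2 rose by 0.89 with Hh-CM (limma adjusted p = 0.000111). Of 17 focal adhesion genes, 1 rose and 2 fell with Hh-CM, a total near the 18.0% of all genes. Fblim1, which links filamin to focal adhesions, rose by 1.16 with Hh-CM and by 1.85 with both (limma adjusted p = 0.00266 and 0.000231), and the integrin Itgav fell by 0.58 with Hh-CM (limma adjusted p = 0.00804). Itgb5 and Tln2 fell by 0.52 and 0.29 with both (limma adjusted p = 0.000208 and 0.0257).

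Summed levels of markers of some other cell types also differed between conditions, in either direction. Of 10 fibroblast markers tested, 1 rose and 3 fell with Hh-CM, against 18.0% of all genes called. With the Esrrb vector 5 rose and 2 fell, against 16.4% of all genes. The summed FPKM of 5 adipocyte markers, 3 of which were at 0 in all samples and of which only Fabp4 reached 1, was 8.47 to 9.34 in Control, 3.96 to 4.82 in Hh-CM, 3.81 to 3.85 in Esrrb and 1.66 to 2.31 in Esrrb+Hh-CM samples, in the same order as Acta2. The sum of 5 endothelial markers, mainly Tek, was 0.0812 to 0.157 without Hh-CM and 1.19 to 1.67 with it. That of 6 mural markers, mainly Cspg4, was 1.67 to 2.74 without Hh-CM and 3.62 to 4.44 with it. Single markers of these lists went against their sums at levels below 1 FPKM. From Control to Hh-CM cells the mean of the adipocyte marker Plin1 went from 0.0377 to 0.187 FPKM, and that of the mural marker Rgs5 from 0.279 to 0.205 FPKM. The sum of 6 cardiac markers stayed between 1.49 and 3.51 and that of 4 leukocyte markers between 2.12 and 3.77. The part of these markers in the members' changes was not tested, and in bulk samples fewer cells of a kind and less RNA per cell cannot be told apart.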

How the data were processed

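Analysed were 8 RNA-Seq samples of NIH3T3 cells, 2 in each of 4 conditions, grouped by the sample labels. The values were deposited as FPKM. The authors trimmed reads (FASTX-Toolkit), aligned them to mm9 (Bowtie2, TopHat2) and ran Cufflinks on each sample alone. The submitters' processing notes name Cuffdiff too. The paper calls the values RPKM. Whether counting used the strand is not given in the sources used here.

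Loci were joined across samples by position, as identifiers differ between assemblies. A gene took the value of the locus with the best overlap with its annotated mm9 span (shared length over joint length at least 0.5). Genes reaching an FPKM of 1 in 2 or more samples entered a limma fit (version 3.58.1, R 4.3.3) of log2(FPKM + 0.1), with a variance trend, 4 group means over all 8 samples and Benjamini-Hochberg adjustment within each comparison. Rose, fell and changed stand for an adjusted p below 0.05. A fold change on this scale understates that of low genes. Exact permutation of 2 against 2 samples cannot give a p below 0.33. The fit was tested on simulated data.

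The 5 comparisons are those of the paper, and the interaction is the Hh-CM response of the Esrrb line minus that of the empty-vector line. Statistics are given for up to 8 members per comparison with the largest changes whose sign was shared by every pair of samples, for up to 4 genes of each other list, and for further members by role. A further list and a gene of another list are not reported here. The members and lists were chosen with earlier results of these data known. Figures were drawn with matplotlib 3.10.9.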

Additional observations from a re-analysis of the deposited data

Results flagged for a closer look

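No member of the set had a Hh-CM response that differed between the 2 lines by the test of the interaction. Of 19 other YAP target genes tested, 2 passed it, 1 in each direction. Wisp2, the one with the lower value in the Esrrb line, had 82.1 and 81.1 FPKM in Control, 44.8 and 45.3 in Hh-CM, 59.9 and 61.0 in Esrrb and 25.1 and 23.8 in Esrrb+Hh-CM samples, and its log2 response to Hh-CM in the Esrrb line minus that in the empty-vector line was -0.45 (standard error 0.06, limma adjusted p = 0.0283). It was found among all genes tested, of which 1.35% passed this test.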

How the results depend on the processing

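Of 40 named member results, 716 recomputed values gave no change of direction. The call was kept in 667 of them and lost in 49, and the lost calls belonged to 11 results. These were Lmod1 with Hh-CM in each line, Ankrd1, Ctgf and Amotl2 with the Esrrb vector, Actg2 with both, and Ankrd1, Actn4, Tagln2, Filip1l and Ctgf for Esrrb+Hh-CM against Hh-CM cells. With a log2 fold change of 1 in size required as well, the members called were 5 with Hh-CM, 0 with the Esrrb vector, 7 with both, 1 for Esrrb+Hh-CM against Hh-CM and 4 for Esrrb+Hh-CM against Esrrb cells. The other genes of the pathway lists then numbered 6 with Hh-CM and 10 with both, in place of 29 and 47. With only the compared groups in the fit, 4 members in place of 12 passed for Esrrb+Hh-CM against Hh-CM cells. The looser CArG search, chosen after seeing the data, matched 10 members in place of 5.

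Leaving out each sample in turn, where the lone sample left is assumed to vary like the other groups, gave 10 to 17 members with Hh-CM, 6 to 11 with the Esrrb vector, 19 to 26 with both, 4 to 12 for Esrrb+Hh-CM against Hh-CM, 21 to 24 for Esrrb+Hh-CM against Esrrb cells and 0 for the interaction. With Hh-CM the count was 10 without any 1 of the Control or Hh-CM samples, and for Esrrb+Hh-CM against Hh-CM cells it was 4 without Hh-CM replicate 1 and 7 without Hh-CM replicate 2. The other lists gave 16 to 29 with Hh-CM (16 without Control replicate 2 or Hh-CM replicate 1, 17 without Hh-CM replicate 2) and 30 to 44 with both (30 without Control replicate 2). Without Esrrb replicate 1, which stood apart, the members called were 17, 7, 26, 12 and 22 in the 5 comparisons.

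The labels give every condition replicates 1 and 2. Over all genes tested, deviations of samples with the same number correlated between -0.06 and 0.06. No pairing by number was seen, though such a correlation can miss one that is weak or limited to some genes. With the replicate number as a block the counts were 15, 7, 23, 9 and 23 members and 0 for the interaction, and of the named results only Amotl2 with the Esrrb vector and Filip1l for Esrrb+Hh-CM against Hh-CM cells lost their call (limma adjusted p = 0.0635 and 0.063). The FPKM carry no counts, so no counting error is known, and changes of genes near an FPKM of 1, such as Actg2 and Lmod1, which leave the test when every sample must reach 1, are the least certain.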
